A study of Mus musculus with 12 samples.

Results

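The genes described here are 10 genes of blood vessels and of vessel growth: Cdh5, Pecam1, Esam, Tie1, Tek, Kdr, Flt1, Vwf, Vegfa and Angpt2. They were chosen by name as markers of endothelial cells and as members of the vascular endothelial growth factor (VEGF) and angiopoietin pathways. All 10 were on the array, through 16 probes, and all 10 were among the 18947 genes tested. RNA came from distal colorectal tissue of female BALB/c mice, 5 to 7 weeks old at the start and sampled on day 100, and was hybridised to one-colour oligonucleotide arrays, 3 per group and 12 in all. The AOM/DSS group received azoxymethane (AOM, a colon carcinogen) once at 12.5 mg/kg by intraperitoneal injection on day 1 and dextran sulfate sodium (DSS, which injures the colonic epithelium and causes colitis) in drinking water from day 5, for 5 days of each 21, over 3 cycles. Its RNA was from neoplasms clipped with scissors into an RNA storage solution. The AOM group received AOM alone, at 10 mg/kg once a week for 6 weeks. The DSS group received the same 3 cycles of DSS with no AOM, and the control group received neither. RNA of these last 3 groups was from epithelium scraped into Trizol, so disease, dissection, storage and AOM schedule cannot be told apart in any comparison that involves the AOM/DSS group. Mucosal scrapings and clipped neoplasms are mixed tissue, and in such bulk RNA fewer cells of a type and less RNA per cell cannot be told apart. The labels do not say whether the 3 samples of a group came from separate mice, so the p-values rest on the variation between samples alone, part of which may be technical.

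Blood vessels are lined by endothelial cells that adhere to each other through VE-cadherin (Cdh5), PECAM-1 (Pecam1) and ESAM (Esam). VEGF-A, made by epithelial cells, macrophages and other cells, particularly under low oxygen, drives endothelial growth through VEGF receptor 2 (Kdr), while VEGF receptor 1 (Flt1) binds VEGF-A tightly and can act as a decoy. Angiopoietins act through the receptor Tie2 (Tek), with Tie1 as its partner: angiopoietin-2 (Angpt2) is made largely by activated endothelium, loosens the contact of vessels with their supporting cells and is commonly raised in inflamed and tumour vessels. Von Willebrand factor (Vwf) is stored in endothelial cells and platelets and binds platelets at sites of injury.

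Values are log2 processed signals with the 75th percentile of the array set to 0, so they compare 1 probe between arrays and not 1 gene with another. For AOM/DSS samples that percentile was at an intensity of 1115 to 1185 and 62.6 to 66.2% of probes exceeded background clearly, and for the 9 other samples the values were 393 to 694 and 52.0 to 59.3%. The 9 epithelial markers examined, keratins and junction proteins among them, were well above background on all 12 arrays. Control replicates 1 and 2 stood apart from the other 10 arrays in the endothelial genes chosen here other than Vwf, and in fibroblast and pericyte markers. A pancreatic exocrine signal was strongest on control replicate 3 and DSS replicate 1, and was also present on control replicates 1 and 2. All 8 measured pancreatic markers were well above background on each of these arrays, against 2 to 5 on each of the others. Summed over the 8 markers, the signal was 0.403 to 0.653 times the 75th percentile on the AOM/DSS arrays and 0.846 to 0.899 times on the AOM arrays. On the DSS arrays it was 134, 0.949 and 1.52 times, and on the control arrays 34.5, 3.30 and 813 times. The scanner headers place AOM/DSS replicates 1 and 2 with AOM replicates 1 and 2 on 1 slide, AOM replicate 3 with the 3 DSS samples on another, and AOM/DSS replicate 3 with the 3 control samples on the last. AOM/DSS and DSS, AOM and control, and DSS and control thus share no slide.

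The junction genes Cdh5, Pecam1 and Esam were lower on control replicates 1 and 2 than on any of the remaining 10 arrays. The log2 level of Cdh5 was -1.46, -1.42 and -0.83 on the AOM/DSS arrays, -0.88, -0.88 and -1.34 on the AOM arrays, -1.28, -0.58 and -1.81 on the DSS arrays and -4.93, -5.36 and -1.81 on the control arrays. Its probe was well above background on 10 arrays, control replicates 1 and 2 being the 2 exceptions, and the AOM/DSS and AOM ranges lay above the control range. Cdh5 averaged -1.24 ± 0.35 in AOM/DSS neoplasms and -4.03 ± 1.94 in control epithelium (SD, n = 3 arrays each), a log2 difference of 2.80 ± 0.75 (SE; adjusted p = 0.0158) by limma. With control replicates 1 and 2 set at the dimmest signal well above background on their arrays, it was at least 3.84-fold higher. Against the same control arrays, the log2 difference was 3.00 ± 0.75 (SE; adjusted p = 0.0173) for AOM and 2.81 ± 0.75 (SE; adjusted p = 0.124) for DSS, so Cdh5 passed the threshold of 0.05 for AOM/DSS and AOM. A second Cdh5 probe was well above background on 3 AOM/DSS, 2 AOM and 0 control arrays, and the signal of its control arrays was only bounded. It was at least 1.35-fold higher for AOM/DSS (adjusted p = 0.014) and at least 1.11-fold for AOM (adjusted p = 0.0312) in a limma fit of every probe.

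Pecam1, an adhesion molecule of endothelial cells that platelets and leukocytes also carry, had log2 levels of -2.60, -2.49 and -2.01 on the AOM/DSS arrays, -0.84, -1.90 and -2.27 on the AOM arrays, -1.52, -1.29 and -2.26 on the DSS arrays and -3.64, -4.42 and -2.09 on the control arrays. The highest value was that of AOM replicate 1, and control replicate 3 lay within the range of the other groups. Pecam1 rose by 1.72 ± 0.56 (SE; adjusted p = 0.0395) in AOM epithelium, while its difference from control was 1.02 ± 0.56 (SE; adjusted p = 0.182) in AOM/DSS neoplasms and 1.70 ± 0.56 (SE; adjusted p = 0.16) after DSS. For Esam, a junction protein of endothelium and platelets, the log2 levels were -2.13, -2.48 and -2.41 on the AOM/DSS arrays, -2.19, -2.24 and -2.45 on the AOM arrays, -2.78, -2.27 and -3.06 on the DSS arrays and -4.64, -3.81 and -2.62 on the control arrays. The 3 AOM/DSS and the 3 AOM values lay above all control values, with control replicate 3 close beneath them. Esam rose by 1.35 ± 0.42 (SE; adjusted p = 0.0304) in AOM/DSS neoplasms and by 1.40 ± 0.42 (SE; adjusted p = 0.0305) in AOM epithelium, and its difference after DSS was 0.99 ± 0.42 (SE; adjusted p = 0.219). Pecam1 and Esam were also not well above background on control replicates 1 and 2, and with these set at that limit where it was higher, Pecam1 differed by 1.56 for AOM and Esam by 1.06 for AOM/DSS and 1.11 for AOM.

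**Figure D1:**
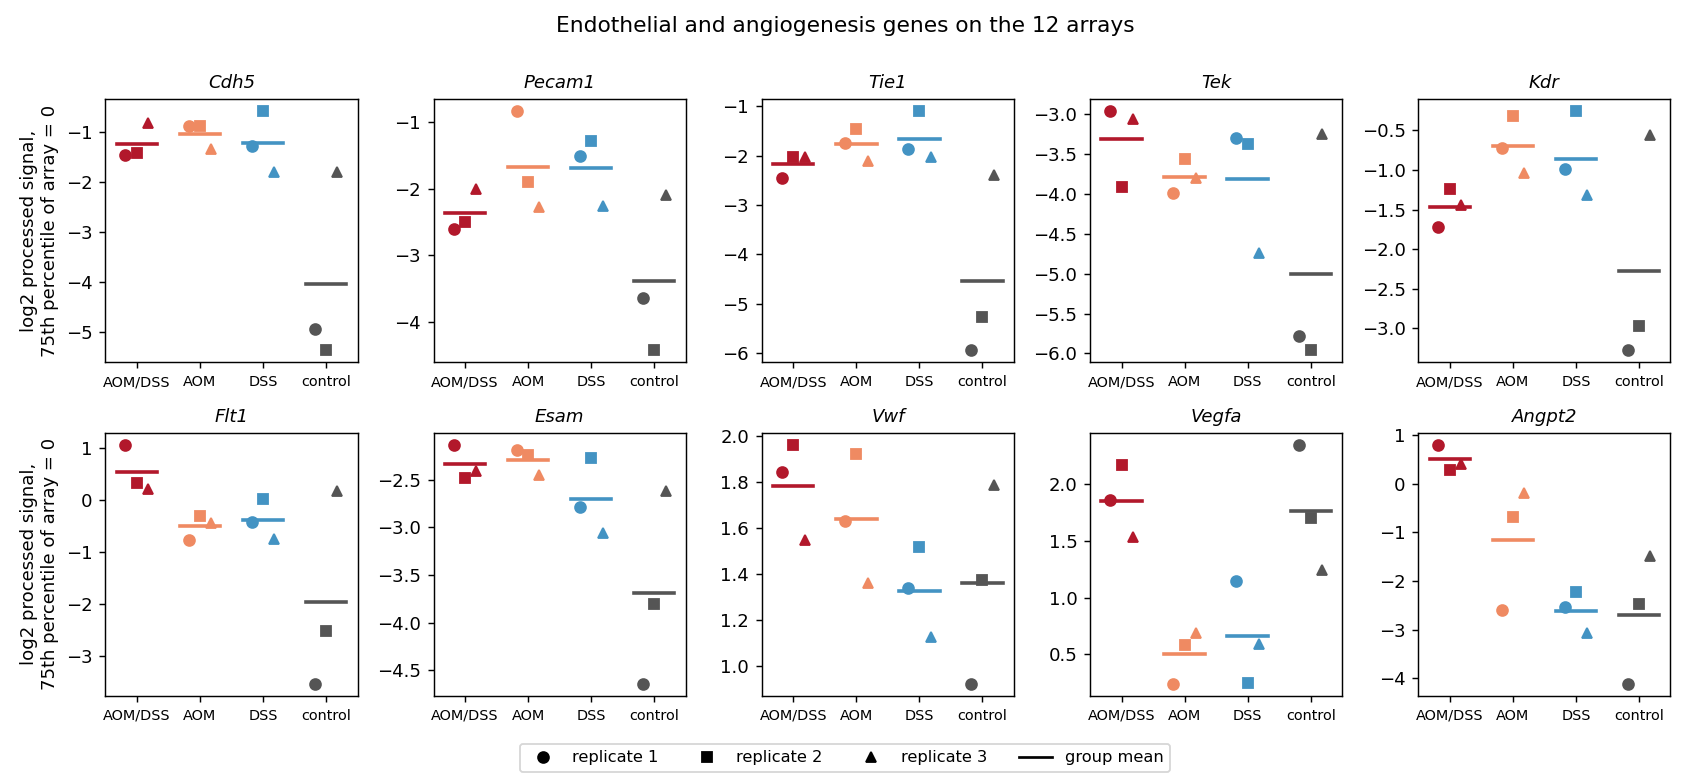
Log2 processed signal (75th percentile of each array set to 0, vertical axes, each gene on its own scale) of the 10 genes by group (horizontal axes), with 1 marker per array and a line at the group mean. For Cdh5, Pecam1, Tie1, Tek, Kdr, Flt1 and Esam the circles and squares of the control group, replicates 1 and 2, lie below the other 10 arrays, and for Angpt2 the 3 AOM/DSS arrays lie above the other 9.

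The angiopoietin receptor genes are shown with their promoter windows because Tie1 and Tek have neighbouring roles and a similar pattern here, while their windows differ in the letters found. RefSeq promoter windows (build GRCm38.p6, 250 bases before to 50 bases after the start of the gene) were held for 5 of the 10 genes: Tie1, Tek, Kdr, Flt1 and Vegfa. They were searched on both strands for 1 form of the ETS-factor site, AGGAAG, which 35.4% of all 32851 windows held. A GATA-factor site was searched likewise, as AGATAA, which 11.2% of windows held. The core of the hypoxia response element was searched in 1 form only, ACGTG, which 19.6% held. A Vegfa window, not printed here, held a GATA match beginning at position -182 relative to the start. Another Vegfa window held ACGTG or its reverse complement at position -211. A match describes the letters only, and no match says only that they are not in that window. In the windows printed here, in the gene's own 5′ to 3′ direction, capitals mark ETS matches. The Tie1 window (chr4:118489800-118490099, minus strand) held ETS matches beginning at positions -219 and 34 relative to the start. The Tek window (chr4:94739039-94739338, plus strand) held no ETS match and 1 GATA match, at position 37.
Tie1: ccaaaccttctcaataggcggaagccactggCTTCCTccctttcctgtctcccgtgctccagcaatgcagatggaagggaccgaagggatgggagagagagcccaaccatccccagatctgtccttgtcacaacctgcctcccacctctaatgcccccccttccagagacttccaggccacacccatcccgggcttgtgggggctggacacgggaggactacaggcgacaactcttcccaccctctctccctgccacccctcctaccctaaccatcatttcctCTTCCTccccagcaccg
Tek: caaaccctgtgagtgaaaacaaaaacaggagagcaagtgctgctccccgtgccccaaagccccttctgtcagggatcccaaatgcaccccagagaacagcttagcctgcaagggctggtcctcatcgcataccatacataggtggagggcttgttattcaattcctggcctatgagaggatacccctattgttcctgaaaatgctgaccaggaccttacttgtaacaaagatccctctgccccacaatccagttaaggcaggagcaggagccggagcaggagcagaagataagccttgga

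The log2 level of Tie1 was -2.46, -2.04 and -2.04 on the AOM/DSS arrays, -1.73, -1.45 and -2.11 on the AOM arrays, -1.87, -1.10 and -2.02 on the DSS arrays and -5.95, -5.26 and -2.39 on the control arrays. Control replicates 1 and 2 were the lowest of the 12 arrays and not well above background, and control replicate 3 lay just under the AOM and DSS ranges and within the AOM/DSS range. Tie1 averaged -2.18 ± 0.25 in AOM/DSS neoplasms, -1.77 ± 0.33 in AOM epithelium, -1.66 ± 0.49 in DSS epithelium and -4.54 ± 1.89 in control epithelium (SD, n = 3 arrays each). The difference from control was 2.36 ± 0.72 (SE; adjusted p = 0.0278) for AOM/DSS, 2.77 ± 0.72 (SE; adjusted p = 0.0193) for AOM and 2.88 ± 0.72 (SE; adjusted p = 0.111) for DSS. The DSS difference was the largest of the 3 for Tie1, and it did not pass the threshold. With control replicates 1 and 2 at the dimmest signal well above background, the differences were 1.19, 1.61 and 1.71 in the same order, and they are lower bounds.

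Tek, the receptor of angiopoietin-1 and angiopoietin-2, had log2 levels of -2.96, -3.91 and -3.06 on the AOM/DSS arrays, -3.98, -3.57 and -3.80 on the AOM arrays, -3.30, -3.38 and -4.75 on the DSS arrays and -5.79, -5.96 and -3.25 on the control arrays. Control replicates 1 and 2 were again lowest, DSS replicate 3 was also not well above background, and control replicate 3 lay between the AOM/DSS values. No difference of Tek from control passed the threshold: it was 1.69 ± 0.66 (SE; adjusted p = 0.0692) for AOM/DSS, 1.21 ± 0.66 (SE; adjusted p = 0.171) for AOM and 1.19 ± 0.66 (SE; adjusted p = 0.31) for DSS.

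The VEGF receptor genes Kdr and Flt1 stood in opposite order, AOM/DSS arrays lying below AOM arrays for Kdr and above them for Flt1, although neither difference passed the test. Their promoter windows are printed too, because these receptor genes have neighbouring roles and windows that differ in the letters found. The Flt1 window (chr5:147725962-147726261, minus strand) held ETS matches at positions -129 and -53. The Kdr window (chr5:75978406-75978705, minus strand) held none of the letters searched.
Flt1: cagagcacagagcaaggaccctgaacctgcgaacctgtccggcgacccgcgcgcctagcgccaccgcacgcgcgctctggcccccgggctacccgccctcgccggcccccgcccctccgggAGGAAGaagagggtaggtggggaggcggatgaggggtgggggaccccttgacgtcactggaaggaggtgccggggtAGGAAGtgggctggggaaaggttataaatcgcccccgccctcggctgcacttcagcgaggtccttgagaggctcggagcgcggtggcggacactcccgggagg
Kdr: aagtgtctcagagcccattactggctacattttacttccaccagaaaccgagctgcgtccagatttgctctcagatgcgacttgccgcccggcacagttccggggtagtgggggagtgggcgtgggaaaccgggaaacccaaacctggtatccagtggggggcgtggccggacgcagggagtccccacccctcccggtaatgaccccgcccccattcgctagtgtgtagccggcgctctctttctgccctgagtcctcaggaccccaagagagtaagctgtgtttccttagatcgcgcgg

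Kdr, the main signalling receptor of VEGF-A, had log2 levels of -1.72, -1.25 and -1.44 on the AOM/DSS arrays, -0.72, -0.32 and -1.04 on the AOM arrays, -0.99, -0.26 and -1.32 on the DSS arrays and -3.28, -2.98 and -0.56 on the control arrays. Control replicate 3 was behind AOM replicate 2 and DSS replicate 2 alone, control replicates 1 and 2 were lowest, and the 3 AOM/DSS values lay below the 3 AOM values without overlap. No Kdr difference passed the threshold: it was 0.81 ± 0.60 (SE; adjusted p = 0.328) for AOM/DSS, 1.58 ± 0.60 (SE; adjusted p = 0.0649) for AOM and 1.42 ± 0.60 (SE; adjusted p = 0.216) for DSS against control, and -0.78 ± 0.60 (SE; adjusted p = 0.321) for AOM/DSS against AOM. The log2 level of Flt1 was 1.07, 0.32 and 0.21 on the AOM/DSS arrays, -0.76, -0.31 and -0.45 on the AOM arrays, -0.43, 0.02 and -0.76 on the DSS arrays and -3.55, -2.54 and 0.17 on the control arrays. For Flt1 the 3 AOM/DSS arrays were the highest of the 12, with control replicate 3 next to them and control replicates 1 and 2 lowest. Flt1 averaged 0.54 ± 0.47 in AOM/DSS neoplasms and -1.97 ± 1.92 in control epithelium (SD, n = 3 arrays each), a difference of 2.51 ± 0.73 (SE; adjusted p = 0.0232) or 5.68-fold. Its second probe gave 2.53 ± 0.74 (SE; adjusted p = 0.0227) in the fit of every probe. The difference of Flt1 from control was 1.46 ± 0.73 (SE; adjusted p = 0.141) for AOM and 1.58 ± 0.73 (SE; adjusted p = 0.246) for DSS, and AOM/DSS minus AOM was 1.04 ± 0.73 (SE; adjusted p = 0.275).

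Vwf differed from the other endothelial genes in that control replicates 1 and 2 were not set apart. Its log2 level was 1.84, 1.96 and 1.55 on the AOM/DSS arrays, 1.63, 1.92 and 1.36 on the AOM arrays, 1.34, 1.52 and 1.12 on the DSS arrays and 0.92, 1.37 and 1.79 on the control arrays, well above background on all 12 arrays. The whole range over 12 arrays was 1.04 for Vwf, against 2.51 to 4.85 for the other 7 endothelial genes. Vwf averaged 1.78 ± 0.21 in AOM/DSS neoplasms and 1.36 ± 0.43 in control epithelium (SD, n = 3 arrays each), a difference of 0.42 ± 0.26 (SE; adjusted p = 0.226) that did not pass the threshold. The difference was 0.28 ± 0.26 (SE; adjusted p = 0.417) for AOM and -0.03 ± 0.26 (SE; adjusted p = 0.951) for DSS. The 3 AOM/DSS values lay above the 3 DSS values, and that difference of 0.46 ± 0.26 (SE; adjusted p = 0.179) did not pass either. A second Vwf probe averaged -0.53 ± 0.19 in AOM/DSS, -0.71 ± 0.23 in AOM, and -0.99 ± 0.16 in DSS and -0.96 ± 0.51 in control (SD, n = 3).

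Vegfa followed another order, with AOM and DSS epithelium low and AOM/DSS neoplasms and control epithelium high. On the probe that represents it, A_52_P638895, the log2 level was 1.86, 2.17 and 1.53 on the AOM/DSS arrays, 0.24, 0.59 and 0.69 on the AOM arrays, 1.15, 0.24 and 0.59 on the DSS arrays and 2.35, 1.70 and 1.24 on the control arrays. The 3 AOM/DSS values overlapped the control values, and both groups lay wholly above the AOM and the DSS groups. Vegfa averaged 1.85 ± 0.32 in AOM/DSS, 0.51 ± 0.24 in AOM, 0.66 ± 0.46 in DSS and 1.76 ± 0.55 in control tissue (SD, n = 3 arrays each). It fell in AOM epithelium, with a difference from control of -1.26 ± 0.33 (SE; adjusted p = 0.019) or 2.39-fold lower, and was higher in AOM/DSS neoplasms than in AOM epithelium by 1.35 ± 0.33 (SE; adjusted p = 0.0129) and than in DSS epithelium by 1.19 ± 0.33 (SE; adjusted p = 0.0189). Against control the difference was 0.09 ± 0.33 (SE; adjusted p = 0.86) for AOM/DSS and -1.10 ± 0.33 (SE; adjusted p = 0.141) for DSS.

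The 4 Vegfa probes did not give 1 answer. They are annotated to 2 RefSeq transcripts of Vegfa, A_52_P638895 and A_51_P482552 to one and A_52_P249424 and A_52_P229471 to another, and the last was well above background on 7 of 12 arrays. On A_51_P482552 the log2 level was 0.84, 0.67 and 0.31 on the AOM/DSS arrays, -0.43, -0.41 and 0.07 on the AOM arrays, 0.31, -0.21 and 0.59 on the DSS arrays and 1.60, 1.23 and 0.49 on the control arrays, so the AOM mean was lowest and the control mean highest. On A_52_P249424 it was -0.55, -0.22 and -0.82 on the AOM/DSS arrays, -0.54, -0.69 and -0.96 on the AOM arrays, -0.66, -1.32 and -0.26 on the DSS arrays and 1.09, 0.09 and -0.72 on the control arrays, and the AOM/DSS values overlapped the AOM values. In the fit of every probe, over 25452 probes, AOM minus control was -1.26 ± 0.33 (SE; adjusted p = 0.0179) on A_52_P638895 and -1.36 ± 0.32 (SE; adjusted p = 0.0131) on A_51_P482552, and -0.89 ± 0.42 (SE; adjusted p = 0.123) and -0.91 ± 0.37 (SE; adjusted p = 0.0826) on the other two. AOM/DSS minus AOM was 1.35 ± 0.33 (SE; adjusted p = 0.0126) on A_52_P638895, 0.86 ± 0.32 (SE; adjusted p = 0.0542) on A_51_P482552, 0.37 ± 0.37 (SE; adjusted p = 0.451) on A_52_P229471 and 0.20 ± 0.42 (SE; adjusted p = 0.721) on A_52_P249424. The higher Vegfa level of AOM/DSS neoplasms relative to AOM or DSS epithelium was thus called on 1 of 4 probes, and AOM/DSS minus control was negative on the other 3, at -0.50 ± 0.32 (SE; adjusted p = 0.246), -0.53 ± 0.37 (SE; adjusted p = 0.293) and -0.68 ± 0.42 (SE; adjusted p = 0.232).

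**Figure D2:**
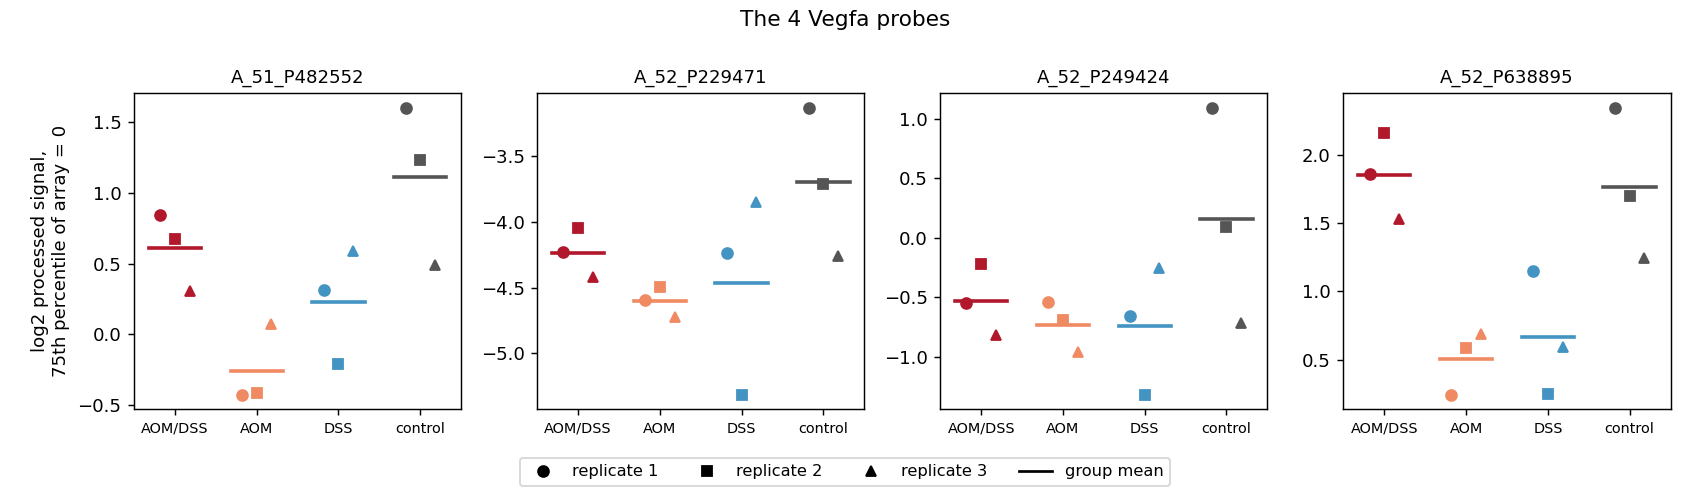
Log2 processed signal (75th percentile of each array set to 0, vertical axes) of the 4 Vegfa probes by group (horizontal axes), with 1 marker per array and a line at the group mean. On A_52_P638895 the AOM/DSS arrays lie above all AOM and DSS arrays. On A_51_P482552, A_52_P249424 and A_52_P229471 the AOM/DSS and DSS ranges overlap.

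Angpt2 was highest on the 3 AOM/DSS arrays. Its log2 level was 0.81, 0.29 and 0.41 on the AOM/DSS arrays, -2.59, -0.68 and -0.20 on the AOM arrays, -2.54, -2.22 and -3.07 on the DSS arrays and -4.12, -2.48 and -1.48 on the control arrays. The AOM/DSS values lay above all 9 others. AOM values spread widely, AOM replicate 1 being at the level of the DSS arrays, and control replicate 1 was not well above background. Angpt2 averaged 0.50 ± 0.27 in AOM/DSS, -1.16 ± 1.27 in AOM, -2.61 ± 0.43 in DSS and -2.69 ± 1.33 in control tissue (SD, n = 3 arrays each). It rose in AOM/DSS neoplasms by 3.19 ± 0.69 (SE; adjusted p = 0.00559) against control, 9.15-fold (8.44-fold with control replicate 1 at the limit), and by 3.11 ± 0.69 (SE; adjusted p = 0.00814) against DSS, 8.63-fold. The difference of 1.66 ± 0.69 (SE; adjusted p = 0.0798) against AOM did not pass. Against control the difference was 1.54 ± 0.69 (SE; adjusted p = 0.106) for AOM and 0.08 ± 0.69 (SE; adjusted p = 0.953) for DSS.

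Counted together, 5 of the 10 genes (Cdh5, Esam, Tie1, Flt1 and Angpt2) were called higher for AOM/DSS than for control, and 0 were called lower. Over all genes tested 34.7% were called in this comparison, 17.3% higher and 17.5% lower, so that 49.7% of the 6579 calls were higher. With the median of each array in place of the 75th percentile the share of higher calls was 39.1%. The median log2 difference of the 10 genes was 1.52 and that of all genes 0.03. In 4 of the 10 (Cdh5, Esam, Flt1 and Angpt2) the 2 groups did not overlap, against 52.4% of all genes. For AOM against control, 4 of the 10 were called higher (Cdh5, Pecam1, Esam and Tie1) and 1 lower (Vegfa), where 32.4% of all genes were called (14.8% higher and 17.6% lower), and 4 did not overlap, against 49.1% of all genes. The median was 1.50 for the 10 genes and -0.008 for all genes. For DSS against control, limma called 0 of the 10 genes, against 0.327% of all genes. At an unadjusted p under 0.05 it was 6 of the 10. The share of all genes at that threshold was not counted, so this count says nothing particular to the 10 genes. Tie1 and Vegfa did not overlap, against 18.4% of all genes. The median DSS difference was 1.30 for the 10 genes and -0.025 for all genes. Without control replicates 1 and 2 the median of the 10 genes was 0.249 for AOM/DSS, 0.099 for AOM and -0.375 for DSS. With normexp background correction followed by quantile normalization it was 0.538, 0.835 and 0.609. The moderated F test over the 4 groups called Angpt2, Vegfa, Cdh5, Tie1 and Esam, 5 of 10, against 52.6% of all genes. These 3 comparisons share the control arrays, so they are not independent of each other.

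**Figure D3:**
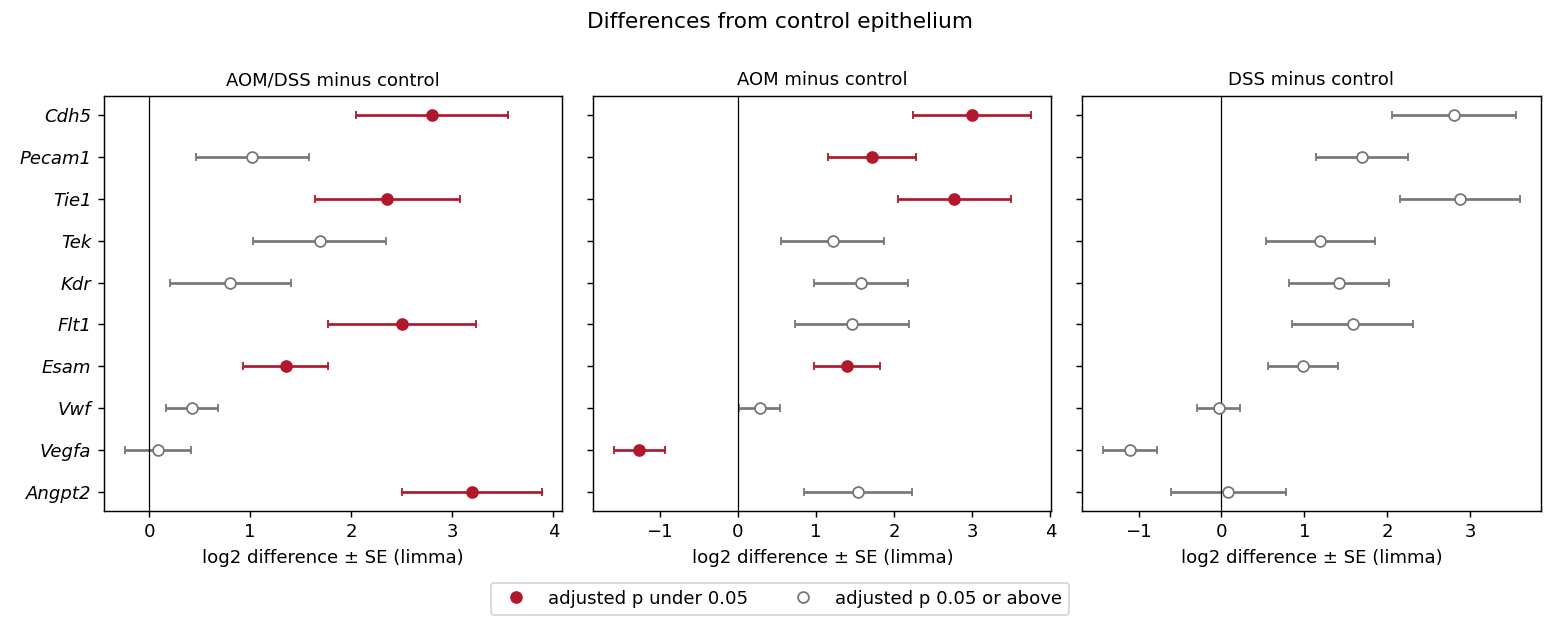
Log2 difference from control (horizontal axes, limma, bars ± SE) of each gene in AOM/DSS, AOM and DSS tissue, n = 3 arrays per group, with filled points where the adjusted p was under 0.05. Tie1 stands at 2.36, 2.77 and 2.88 in the 3 panels and is filled in the first 2, while Angpt2 stands at 3.19 in the first and 0.08 in the last.

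Which control arrays entered the comparison decided most of these calls. Without control replicate 3, 8 of the 10 genes were called for AOM/DSS, 9 for AOM and 8 for DSS, against 36.8%, 34.4% and 7.16% of all genes. Cdh5 then differed from control by 3.91 (adjusted p = 0.000103) for AOM/DSS, 4.11 (adjusted p = 0.000427) for AOM and 3.92 (adjusted p = 0.000966) for DSS. Without control replicate 1, the only gene called was Angpt2 for AOM/DSS, at 2.48 (adjusted p = 0.021), and without control replicate 2 it was again Angpt2 for AOM/DSS, at 3.30 (adjusted p = 0.0152). Of all genes, 22.8% were called for AOM/DSS and 12.5% for AOM without the first of these, and 26.9% and 14.6% without the second. With both of those left out, a choice made after seeing the data, 0 of the 10 were called in any of the 3 comparisons (1, 0 and 0 at an unadjusted p under 0.05), where 9.76%, 0.956% and 0.506% of all genes were. Control replicate 3 alone then stood for the group, its spread taken from the other groups. Cdh5 differed by 0.57 (adjusted p = 0.502) for AOM/DSS, 0.77 (adjusted p = 0.35) for AOM and 0.58 (adjusted p = 0.744) for DSS, and Angpt2 by 1.98 (adjusted p = 0.153) for AOM/DSS. The 3 control arrays share a slide, and within it AOM/DSS replicate 3 exceeded the mean of the controls by 3.21 for Cdh5, 2.50 for Tie1, 2.18 for Flt1 and 3.10 for Angpt2. With slide as a block, limma called 0 of the 10 genes against control (2, 3 and 2 at an unadjusted p under 0.05 for AOM/DSS, AOM and DSS), with Cdh5 at 3.21 (adjusted p = 0.107) and Angpt2 at 3.10 (adjusted p = 0.0766) for AOM/DSS. That fit called 11.7% of all genes for AOM/DSS, 0.0211% for AOM and 0.0106% for DSS, so for AOM and DSS its count says nothing particular to the 10 genes. Another setting replaced the scanner's background correction by normexp with an offset of 50, and the 75th-percentile scaling by quantile normalization. The AOM/DSS difference was then 1.12 (adjusted p = 0.0178) for Cdh5 and 0.70 (adjusted p = 0.0617) for Tie1, so that Tie1 was no longer called. The parts of these steps were not separated.

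**Figure D4:**
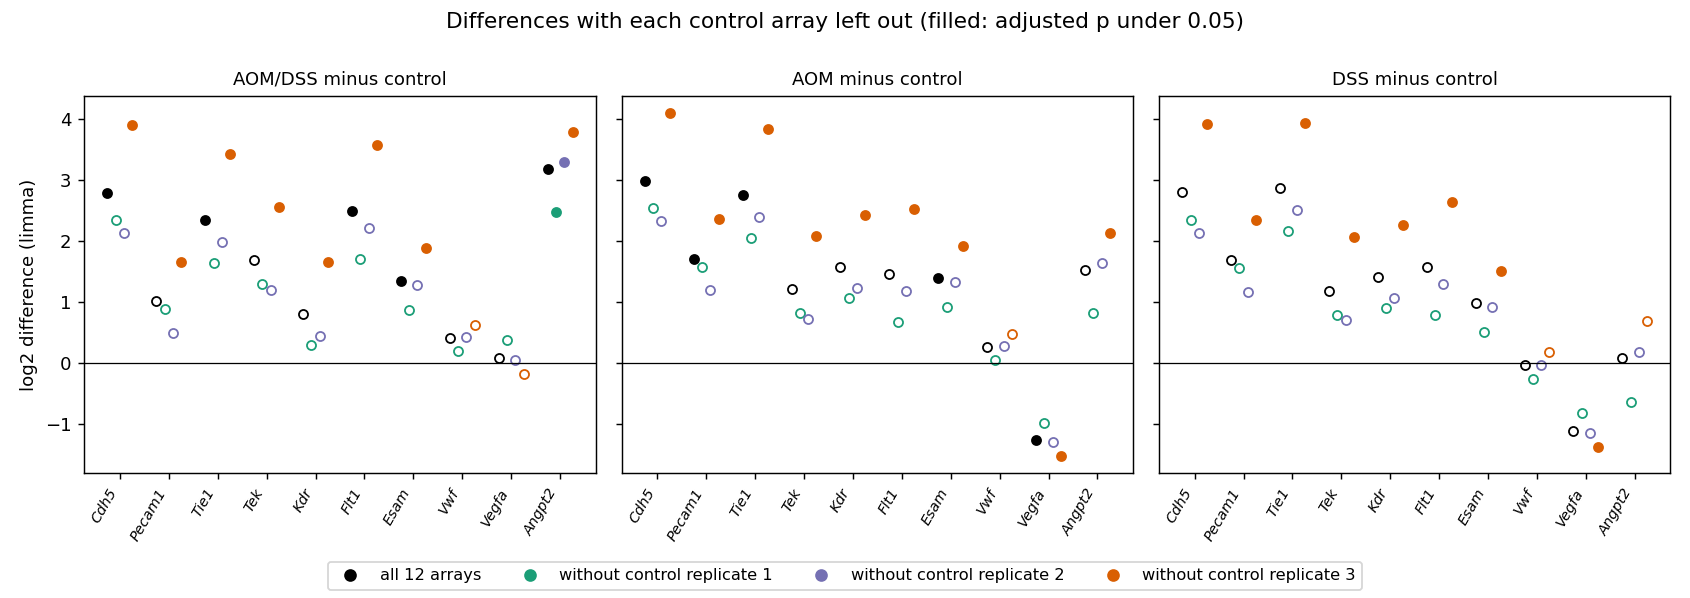
Log2 difference from control (vertical axes, limma) of the 10 genes with all 12 arrays and with each control array left out, filled where the adjusted p was under 0.05. Without control replicate 3 the difference of Cdh5 is 3.91, 4.11 and 3.92 for AOM/DSS, AOM and DSS, against 2.80, 3.00 and 2.81 with all arrays, and Vwf is unfilled in all 3 panels.

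Against the scraped tissue of treated mice, limma called 0 of the 8 endothelial genes (Cdh5, Pecam1, Esam, Tie1, Tek, Kdr, Flt1 and Vwf) in AOM/DSS neoplasms, and 0 also at an unadjusted p under 0.05. Their median difference was -0.12 against AOM and 0.18 against DSS, where the medians of all genes were -0.04 and 0.04. Of the 10 genes, Vegfa was called higher than in AOM epithelium, where 37.2% of all genes were called (19.5% higher and 17.7% lower), and Vegfa and Angpt2 higher than in DSS epithelium, where 35.9% were (17.7% higher and 18.3% lower). Of all calls 52.4% were higher against AOM and 49.2% against DSS, and with the median of each array as the scale 33.7% and 35.2% were. AOM/DSS and DSS arrays share no slide, and with slide as a block neither call against DSS remained, Vegfa being at 1.63 (adjusted p = 0.166) and Angpt2 at 4.60 (adjusted p = 0.0902), where 2.31% of all genes were called. Against AOM, Vegfa stayed called in that fit, at 1.60 (adjusted p = 0.0415). The groups did not overlap in 4 of 10 genes for AOM (Flt1, Vegfa and Angpt2 higher, Kdr lower), against 59.4% of all genes. For DSS they did not overlap in 5 (Flt1, Vwf, Vegfa and Angpt2 higher, Tie1 lower), against 48.9%. Control replicates 1 and 2 enter these comparisons only through the filter and the shared spread. Without them Angpt2 and Flt1 joined Vegfa as called against AOM, at 1.66 (adjusted p = 0.0483) and 1.04 (adjusted p = 0.0322), and Flt1 was called against DSS at 0.92 (adjusted p = 0.045). On the slide that holds replicates 1 and 2 of both AOM/DSS and AOM, the difference of means was 2.18 for Angpt2, 1.60 for Vegfa and 1.23 for Flt1, and -1.18 for Pecam1 and -0.97 for Kdr. DSS and AOM epithelium differed in 0 of the 10 genes (0 also at an unadjusted p under 0.05, by limma) and did not overlap in 0, where 0.0106% of all genes were called and 18.5% did not overlap. The largest such difference was that of Angpt2, at -1.45 ± 0.69 (SE; adjusted p = 0.352).

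Other genes of the VEGF and angiopoietin pathways were examined as lists, whose counts stand against 34.7% of all genes called for AOM/DSS and 32.4% for AOM. Of 7 measured ligands besides Vegfa and Angpt2, 2 were called higher for AOM/DSS against control: Pgf, coding for placental growth factor, a ligand of VEGF receptor 1, by 1.16 ± 0.29 (SE; adjusted p = 0.0105), and Angpt4, at least 1.38-fold (adjusted p = 0.0181). An at-least value sets control arrays, none of which was well above background, at the dimmest signal that was. Angpt4 was well above background on 1 AOM and 1 DSS array, so it entered the test only through the AOM/DSS group. Pgf was also higher in AOM epithelium, by 0.84 ± 0.29 (SE; adjusted p = 0.0468). Of 7 co-receptors and related receptors, 4 were higher in AOM/DSS neoplasms and 3 in AOM epithelium. The endoglin gene Eng, a TGF-beta co-receptor of endothelium, differed by 2.58 ± 0.78 (SE; adjusted p = 0.0261) for AOM/DSS and 3.00 ± 0.78 (adjusted p = 0.0191) for AOM. Robo4, an endothelial guidance receptor, differed by 1.60 ± 0.55 (adjusted p = 0.0434) for AOM/DSS and 1.85 ± 0.55 (adjusted p = 0.0288) for AOM, and Ptprb, the phosphatase that acts on Tie2, by 1.80 ± 0.57 (adjusted p = 0.0328) for AOM/DSS. The median of the 7 receptors was 1.60 for AOM/DSS and 1.85 for AOM with all arrays, and 0.06 and -0.07 without control replicates 1 and 2, where limma called 0 (0 also at an unadjusted p under 0.05).

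Of 15 other pan-endothelial genes, 5 were called higher and 1 lower for AOM/DSS against control, and 6 higher and 1 lower in AOM epithelium. The median was 1.39 and 1.88. Nos3, the endothelial nitric oxide synthase, differed by 2.39 ± 0.54 (SE; adjusted p = 0.00677) for AOM/DSS and 2.57 ± 0.54 (adjusted p = 0.0105) for AOM. Egfl7, coding for a protein that endothelium secretes into its matrix, differed by 2.02 ± 0.54 (adjusted p = 0.0157) and 2.52 ± 0.54 (adjusted p = 0.0113) in the same order, and Mcam, an adhesion molecule of endothelium and pericytes, by 3.22 ± 0.84 (adjusted p = 0.0137) and 2.65 ± 0.84 (adjusted p = 0.036). Only 1 of 3 control arrays was well above background for Eng, Nos3, Mcam, Sox18 and Esm1, and with the other two at that limit Nos3 differed by 1.22 for AOM/DSS and 1.40 for AOM. Ecscr, a cell-surface gene of endothelium, averaged 3.28 ± 0.44 in AOM/DSS, 1.76 ± 1.04 in AOM, -0.01 ± 0.58 in DSS and -0.999 ± 0.574 in control tissue (SD, n = 3 arrays each). It was called higher in AOM/DSS neoplasms than in AOM epithelium, by 1.52 ± 0.52 (SE; adjusted p = 0.0404), than in DSS epithelium, by 3.29 ± 0.52 (adjusted p = 0.00169), and than in control, by 4.28 ± 0.52 (adjusted p = 0.000243). Clec14a, an endothelial lectin, was the 1 gene called lower than in control, by -1.96 ± 0.30 (adjusted p = 0.000831) in AOM/DSS neoplasms, and is named here with its values known. Icam2 was lower in AOM/DSS neoplasms than in AOM epithelium, by -2.32 ± 0.83 (adjusted p = 0.0478), and than in DSS epithelium, by -2.44 ± 0.83 (adjusted p = 0.0411). It was the 1 of the 15 called lower in each of these comparisons, and its AOM values spread widely, from 0.10 to 3.49. Without control replicates 1 and 2, 1 of the 15 was higher than control (Ecscr, 3.63, adjusted p = 0.0196) and 3 lower for AOM/DSS, and limma called 0 for AOM (4 at an unadjusted p under 0.05).

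Of 11 measured endothelial transcription factors, 4 were called higher and 2 lower for AOM/DSS against control, and 6 higher and 1 lower in AOM epithelium. Sox17, a factor of arterial endothelium, averaged 1.32 ± 0.82 in AOM/DSS, -0.32 ± 1.43 in AOM, -2.39 ± 0.13 in DSS and -3.17 ± 0.20 in control tissue (SD, n = 3 arrays each), a difference from control of 4.49 ± 0.61 (SE; adjusted p = 0.00048) for AOM/DSS and 2.84 ± 0.61 (adjusted p = 0.0111) for AOM. Its control arrays lay close together, unlike those of its relative Sox18, which differed from control by 3.90 ± 0.77 (adjusted p = 0.00364) and 3.47 ± 0.77 (adjusted p = 0.0123) and whose control SD was 1.91. Epas1, coding for the hypoxia-inducible factor HIF-2-alpha, fell in AOM/DSS neoplasms by 1.89 on the log2 scale against control (adjusted p = 0.000402), by 0.79 against AOM (adjusted p = 0.0312) and by 1.45 against DSS (adjusted p = 0.00256). Klf2, a factor induced by blood flow, was lower than in AOM by -1.23 ± 0.30 (adjusted p = 0.0127), and Lyl1, a factor of endothelium and blood cells, by -2.26 ± 0.65 (adjusted p = 0.0223). Without control replicates 1 and 2, Sox17 (4.26, adjusted p = 0.0266) and Epas1 (-1.88, adjusted p = 0.00468) were the 2 of the 11 still called for AOM/DSS against control.

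Of 8 Notch-pathway and tip-cell genes, 4 were called higher and 1 lower for AOM/DSS against control, and 3 higher in AOM epithelium. Jag2, a Notch ligand, exceeded control by at least 5.41-fold in AOM/DSS neoplasms (adjusted p = 0.000654) and at least 3.12-fold in AOM epithelium (adjusted p = 0.0078). Esm1, a gene of endothelial tip cells that VEGF induces, differed by 2.84 ± 0.78 (SE; adjusted p = 0.0171) for AOM/DSS against control, and by 0.56 (adjusted p = 0.547) without control replicates 1 and 2. Unc5b, a netrin receptor of tip cells, was lower in AOM/DSS neoplasms than in AOM, DSS and control tissue, by -2.01 ± 0.42 (adjusted p = 0.00819), -2.46 ± 0.42 (adjusted p = 0.00246) and -2.67 ± 0.42 (adjusted p = 0.00106). Of 5 measured adhesion molecules that inflamed endothelium displays to leukocytes, 3 were higher in each of AOM/DSS and AOM tissue than in control. Icam1 differed by 2.88 ± 0.50 (adjusted p = 0.00176) and 2.59 ± 0.50 (adjusted p = 0.00807) in that order, and Selp, coding for P-selectin, was at least 2.99-fold (adjusted p = 0.0036) and at least 2.03-fold (adjusted p = 0.0164) higher.

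Among 8 angiogenesis inhibitors, 2 were called higher and 1 lower for AOM/DSS against control, and 3 higher in AOM epithelium, counts near the 34.7% and 32.4% of all genes. Thbs2, coding for thrombospondin-2, exceeded control by at least 12-fold in AOM/DSS neoplasms (adjusted p = 0.00757), and Col18a1, the collagen from which endostatin is cut, differed by 3.25 ± 0.59 (SE; adjusted p = 0.00233). Thbs1 was higher in AOM/DSS neoplasms than in AOM, by 1.40 ± 0.46 (adjusted p = 0.0355), and than in DSS, by 2.20 ± 0.46 (adjusted p = 0.00607). Of 12 hypoxia-inducible genes, 1 was called higher and 2 lower for AOM/DSS against control, a share not above the 34.7% of all genes. Pfkfb3, a regulator of glycolysis, rose by 2.25 ± 0.41 (adjusted p = 0.00221), whereas the glucose transporter gene Slc2a1 fell by 1.68 (adjusted p = 0.0028) and Ndrg1 by 1.55 (adjusted p = 0.00321), on the log2 scale. Against AOM, Bnip3, a mitophagy gene, was higher in AOM/DSS neoplasms by 1.75 ± 0.32 (adjusted p = 0.00534), and Slc2a1 and Ndrg1 were lower. In DSS against control and DSS against AOM, limma called 0 of the 141 measured genes of the 19 lists (60 and 14 at an unadjusted p under 0.05). Here too the share of all genes at an unadjusted p was not counted. Without control replicates 1 and 2, AOM/DSS against control had 1 higher and 1 lower call among the Notch and tip-cell genes, 0 and 1 among the inhibitors, and 0 among the adhesion and hypoxia lists (2 and 3 at an unadjusted p under 0.05).

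Fibroblast and pericyte markers moved with the 8 endothelial genes on the control arrays, and markers of other cells did not all do so. Summed as multiples of each array's 75th percentile, the 8 endothelial genes gave 5.82 to 7.05 on the AOM/DSS arrays, 4.87 to 6.87 on the AOM arrays and 4.07 to 6.56 on the DSS arrays, and 2.27, 3.07 and 6.23 on control replicates 1, 2 and 3. Such sums weigh the brightest probes most. On control replicates 1 and 2 Vwf, at a log2 level of 0.92 and 1.37, made up most of the endothelial sum. The other 7 were at -2.54 or lower there, so the sum understates their gap. The 8 fibroblast markers gave 141 to 191, 107 to 157 and 106 to 158 in the same 3 groups, and 28.4, 13.6 and 156 on the controls. The 7 pericyte genes gave 6.79 to 8.58, 6.17 to 7.81 and 6.48 to 9.03, and 3.68, 2.69 and 8.97 on the controls. For both lists, as for the endothelial genes, control replicate 3 lay within or near the range of the treated groups and the other control replicates beneath it. The 6 macrophage markers gave 29.7 to 45.9, 35.7 to 51.7 and 31.9 to 54.9 in AOM/DSS, AOM and DSS tissue and were below all of these on the 3 controls, at 16.0, 10.4 and 19.7. Of 5 measured neutrophil markers, 5 were called higher for AOM/DSS against control with a median log2 difference of 4.50, and 4 without control replicates 1 and 2. Smooth muscle markers followed another order, at 23.6 to 26.5 in AOM/DSS neoplasms, 68.7 to 98.1 in AOM, 53.4 to 98.4 in DSS and 21.8 to 74.2 in control tissue, so that AOM/DSS lay below AOM and DSS and within the control range. Without control replicate 3 their median difference from control was -0.12 for AOM/DSS, 2.42 for AOM and 2.11 for DSS. Without control replicates 1 and 2 it was -2.48, 0.21 and -0.48. By these medians smooth muscle markers too were lower on control replicates 1 and 2 together than on control replicate 3. Epithelial markers were 680 to 819 in AOM/DSS neoplasms and 1280 to 2680 on the other 9 arrays, 1280 being control replicate 3. Of 5 measured lymphocyte markers, 4 were called lower in AOM/DSS neoplasms than in AOM epithelium, with a median difference of -3.64 (37.2% of all genes called). Against DSS epithelium 4 were also lower, with a median of -4.32 (35.9% called). Against control 2 were lower, with a median of -2.39 (34.7% called). The part of these markers and of the pancreatic signal in the endothelial differences was not tested. Platelets also express Vwf, Pecam1 and Esam: 5 measured platelet markers summed to 2.71 to 5.36 in AOM/DSS, 5.28 to 8.85 in AOM, 2.36 to 6.87 in DSS and 0.925 to 3.85 in control tissue, and their part was not tested.

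**Figure D5:**
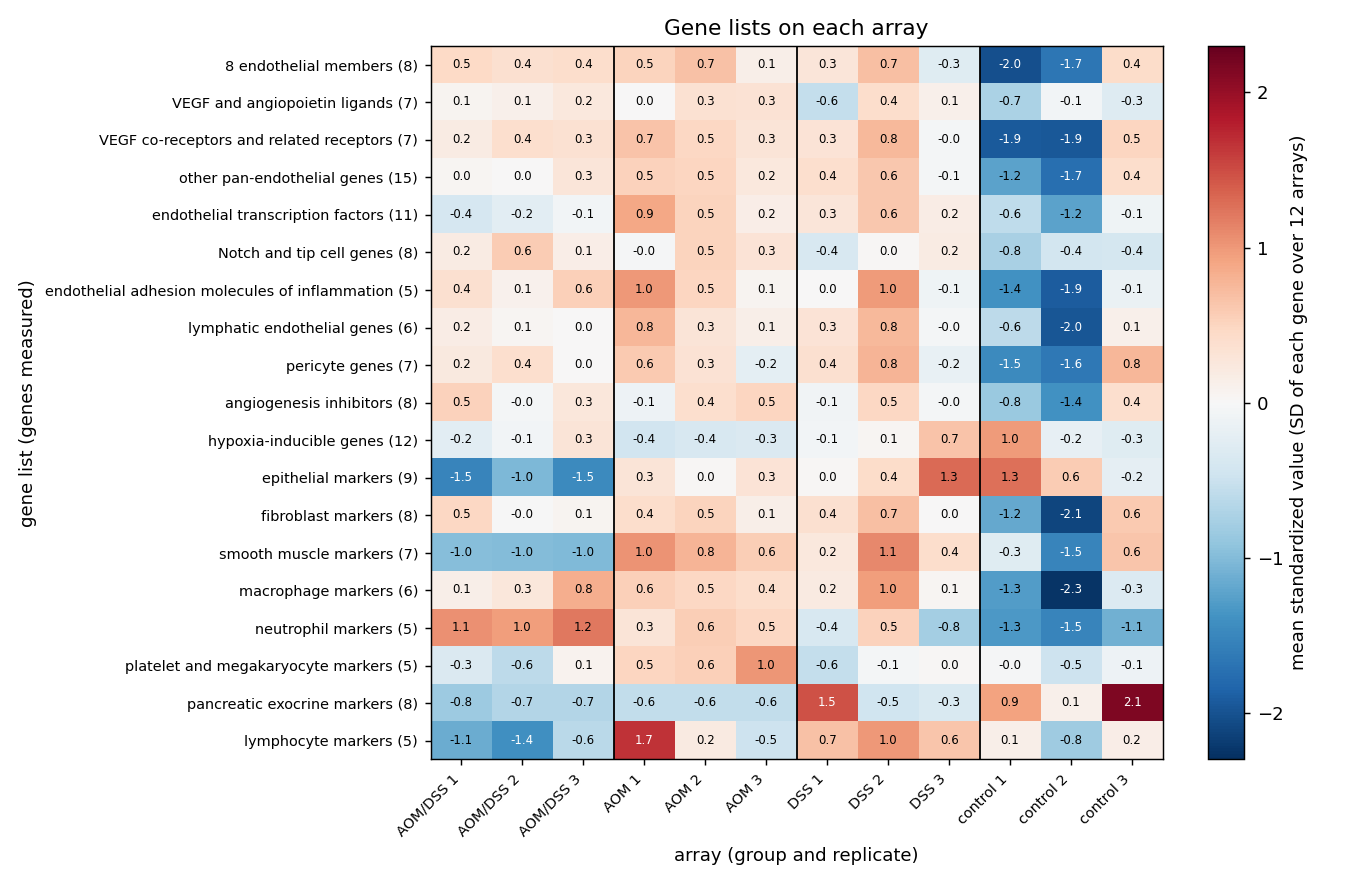
Mean standardized value (colour, in SD of each gene over the 12 arrays) of each gene list (rows, with the number of genes measured) on each array (columns, grouped by treatment). The 8 endothelial genes stand at -2.02 and -1.67 on control replicates 1 and 2 and at 0.43 on control replicate 3, and the fibroblast markers at -1.17, -2.11 and 0.61.

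The endothelial genes varied together over the 12 arrays, chiefly through control replicates 1 and 2. Pearson's r of each with the mean of the other 7 was 0.626 for Vwf and 0.800 to 0.957 for the rest over 12 arrays, and 0.158 for Pecam1 to 0.758 for Esam over the 10 arrays without those controls. Against the mean of all 8, r was -0.53 for Vegfa and 0.587 for Angpt2 over 12 arrays, and -0.04 and 0.255 over 10. These values describe arrays that share treatment groups, slides and tissue mixture and carry no test. The 10 genes outside the set whose levels were most like the mean of the 8 endothelial genes were Col5a1, Mxra8, Ednra, Pcdh12, Rilpl1, Epdr1, Foxf2, Mrc2, Prickle1 and Eng, with r from 0.981 to 0.972 over 12 arrays. Over the 10 arrays their r was 0.625 (Foxf2) to 0.871 (Mxra8). For Angpt2 the most similar genes were Pcdhb17, Abcc4, Ptprz1, Tcp1 and Fam185a, with r from 0.981 to 0.973 over 12 arrays and 0.964 to 0.980 over 10. For Vegfa they were Rad50, Dapp1, Paip2, Sema3c and Zfp655, with r from 0.942 to 0.936 over 12 and 0.910 to 0.955 over 10.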

How the data were processed

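Scanner files of 12 arrays, 3 per group on 3 slides, were read. Per the file headers, the authors made them with Agilent Feature Extraction 10.7.3.1 (10.7 in the submitters' processing notes), and the processed signal is an intensity with background and spatial trend removed, not normalized between arrays. The deposited series matrix holds log2 values with a column median of 6.178, nearly equal in distribution between arrays. The sources used here do not name the tool for that step. The header names an older mouse build than the promoter windows, so no gene coordinates are given.

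Spots flagged as outliers were left out (1173 readings). Log2 intensity minus the 75th percentile of the array was used, spots of a probe were averaged, and a probe was kept if any group had it well above background on its 3 arrays. Symbols came from RefSeq accessions for 27198 of 41174 probes, and a gene took its probe with the highest mean. Limma 3.58.1 in R 4.3.3 fitted 4 group means to 18947 genes (8 residual degrees of freedom), checked on simulated data. Genes were called at a Benjamini-Hochberg adjusted p under 0.05 over all genes.

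The genes and lists were chosen with earlier results of these data known, so they are no independent evidence. Named genes are the 10 members, up to 4 called list genes per comparison with the largest difference, and the 10 or 5 most similar genes, except where stated. Replicate numbers did not pair the arrays: deviations of 18 same-numbered pairs correlated at -0.27 to 0.245, with 8 over 0.1. Alternatives were background correction, scaling, the series matrix, filters, probe choice, slide and replicate blocks, 2-group fits and arrays left out; leaving out control replicates 1 and 2, or control replicate 3 with DSS replicate 1, and setting dim arrays at the dimmest signal well above background were chosen after seeing the data. Precision is limited by 3 arrays per group.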

Additional observations from a re-analysis of the deposited data

How the results depend on the processing

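No difference of the 10 genes that was called in the main fit, described above, changed sign under any alternative run. Differences called only in an alternative could do so: Flt1 for AOM against control ran from -0.676 to 2.53 over the settings. Of 1392 refitted values, 1219 kept sign and side of the threshold and 78 kept sign and lost the call. A further 43 kept sign and gained it, and 52, called in neither fit, changed sign. Of 90 values taken within a slide, or with dim arrays at the dimmest signal well above background, 8 changed sign, none of a difference called in the main fit. The number of the 10 genes called was 5 for AOM/DSS against control, 5 for AOM against control, 0 for DSS against control, 1 for AOM/DSS against AOM, 2 for AOM/DSS against DSS, 0 for DSS against AOM and 5 by the F test. In the same order, leaving out 1 array at a time gave 1 to 8, 0 to 9, 0 to 8, 1 to 2, 1 to 2, 0 to 0 and 2 to 9. AOM against control fell to 0 without AOM replicate 2, and AOM/DSS against control to 2 without any 1 AOM/DSS array. A filter on all 12 arrays, which leaves Vegfa and Vwf alone to test, gave 0 for AOM/DSS and 1 for AOM against control, 1 for AOM/DSS against DSS and 1 by the F test. Fits of the 2 groups compared gave 1 for AOM/DSS and 1 for AOM against control and 3 for AOM/DSS against AOM. Slide as a block gave 0 for AOM/DSS and 0 for AOM against control, 0 for AOM/DSS against DSS and 0 by the F test. Normexp gave 2 and the mean of a gene's probes 0 for AOM/DSS against AOM, and the mean of probes 1 for AOM/DSS against DSS. Without control replicates 1 and 2, 0 were called against control, 3 for AOM/DSS against AOM and 2 by the F test. Without control replicate 3 and DSS replicate 1, 8, 9 and 8 were called against control, 2 for AOM/DSS against AOM and 9 by the F test.

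Over all genes, calls numbered 6579 for AOM/DSS, 6137 for AOM and 62 for DSS against control, 7039 and 6807 for AOM/DSS against AOM and DSS, and 2 for DSS against AOM. Leaving out 1 array gave 4341 to 7386, 1976 to 7290, 9 to 3198, 3382 to 8096, 3347 to 8897 and 0 to 344 in that order. For AOM/DSS against control, no filter gave 13819, slide 2208 and leaving out control replicates 1 and 2 1890. For AOM against control, slide gave 4 and leaving out those controls 185. For DSS against control, normexp gave 179, quantile normalization 114, the series matrix 112, no filter 39, slide 2, 2-group fits 22, without control replicates 1 and 2 98, and without control replicate 3 and DSS replicate 1 4342. Slide gave 2827 for AOM/DSS against AOM and 438 against DSS, where no filter gave 13247. For DSS against AOM, normexp, the mean of probes and slide gave 1, every probe tested 4, and the other settings that moved it 0. Median scaling moved the median of all genes by -0.152 for AOM/DSS and 0.168 for AOM against control, by -0.321 for AOM/DSS against AOM and by -0.226 against DSS, and the share of higher calls against AOM to 33.7% in place of 52.4% and against DSS to 35.2% in place of 49.2%. The replicate block, on numbers that did not pair the arrays, called 5 of the 10 genes for AOM/DSS and 4 for AOM against control, and 40 of all genes for DSS against control and 0 for DSS against AOM. Dim signals limit the 7 endothelial genes that were not well above background on every control array, and the cause of these changes was not tested.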

Other observations

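Genes of lymphatic endothelium and of platelets were also measured. Of 6 lymphatic genes, Prox1, the transcription factor that specifies lymphatic endothelium and is also made by some epithelial cells, was raised in AOM/DSS neoplasms, at least 8.11-fold against control (adjusted p = 0.000748 by limma) and at least 9.03-fold against DSS (adjusted p = 0.00129). Prox1 averaged -0.91 ± 0.64 in AOM/DSS, -3.17 ± 1.82 in AOM, -5.80 ± 0.55 in DSS and -5.83 ± 0.02 in control tissue (SD, n = 3 arrays each, not well above background on any DSS or control array). It was also higher in AOM/DSS neoplasms than in AOM epithelium, by 2.25 ± 0.73 on the log2 scale (SE; adjusted p = 0.0343). Prox1 was well above background on 2 of 3 AOM arrays. It thus entered the test only through the AOM/DSS group, where it is high, and these p-values give no separate support. The other 5 lymphatic genes, Lyve1 and Mmrn1 among them, were not called in the AOM/DSS comparisons, where 34.7% to 37.2% of all genes were called. In AOM epithelium against control, 3 of the 6 lymphatic genes were called higher, Prox1 among them, where 32.4% of all genes were called. Ccl21a, a chemokine of lymphatic vessels, differed by 2.68 ± 0.91 (SE; adjusted p = 0.0456) and Pdpn was at least 1.55-fold higher (adjusted p = 0.0277).

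Of 5 measured platelet genes, 2 were called higher and 0 lower in AOM epithelium than in control, where 32.4% of all genes were called. Pf4, coding for platelet factor 4, was higher by 2.64 ± 0.68 (SE; adjusted p = 0.0186), and Gp1bb, a part of the receptor of von Willebrand factor, by 1.48 ± 0.28 (adjusted p = 0.00741). Gp1bb was lower in AOM/DSS neoplasms than in AOM epithelium, by -1.53 ± 0.28 (adjusted p = 0.00494), and than in DSS epithelium, by -1.19 ± 0.28 (adjusted p = 0.00938). In AOM/DSS neoplasms 1 platelet gene was called higher and 1 lower than in control: Ppbp, a platelet chemokine, at least 1.17-fold higher (adjusted p = 0.0157 by limma), and Gp6, a collagen receptor, by -2.66 (adjusted p = 0.00424) and well above background on 1 AOM/DSS array. Ppbp was well above background on 2 AOM arrays and 0 DSS arrays, and entered the test only through the AOM/DSS group. Against DSS, Ppbp was at least 1.30-fold higher (adjusted p = 0.0129) and Gp1bb the 1 called lower, and against AOM 0 were higher and 2 lower, Gp1bb and Itga2b (-1.62, adjusted p = 0.0407). Over all genes 34.7% were called for AOM/DSS against control, 35.9% against DSS and 37.2% against AOM, so these counts are near the general share.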
